A study of Mus musculus with 3 samples.

Results

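The proteasome subunit genes other than those of the immunoproteasome were described in nuclear RNA of mouse macrophages. The members were the annotated genes whose symbol is Psma, Psmb, Psmc, Psmd, Psme, Psmf or Psmg followed by a number, without Psmb8, Psmb9, Psmb10, Psme1 and Psme2. They numbered 43 of 55536 annotated genes. The rule used names alone and no measured value. The cells were C57BL/6J macrophages grown from bone marrow, and every library came from the same treatment. Lipid A, the moiety of lipopolysaccharide that TLR4 senses, had been present at 100 ng/ml for 12 h and then absent for 12 h. The cells next met 100 ng/ml lipid A again for 15 min, and RNA of the nucleoplasmic fraction was sequenced after removal of ribosomal RNA. The 3 libraries are labelled biological replicates 1, 2 and 3 of a single group with a single donor identifier, so separate mice are not shown and the spread may be technical. Replicate 2 was made from 500 ng of RNA and the others from 1 µg each. With no other group, no gene can be called induced or repressed.

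The proteasome degrades proteins tagged with ubiquitin. Its 20S core is a barrel of stacked alpha and beta rings with the proteolytic sites inside, and the 19S regulatory particle at its ends recognises, unfolds and feeds in the substrate. In macrophages exposed to interferon, the catalytic beta subunits can be replaced by those of the immunoproteasome, which shape peptides for MHC class I. Nuclei hold working proteasomes, but the values here are levels of transcript in the nuclear fraction, not of protein.

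The libraries held 23826101, 19312032 and 21730342 expected counts over annotated genes, and the members took between 0.1363% and 0.1515% of them. In TPM, a level corrected for transcript length, the members summed to between 723 and 748 in each library. A gene was called detected where each of the 3 libraries gave it 1 TPM or more, and 8 of 8 macrophage markers were. Of the markers of T and NK cells (4), B cells (3), granulocytes (4) and fibroblasts (3), 0 were detected, and the highest summed level in any library was 2.85 TPM, for granulocytes.

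Most members were detected, with the subunits of the particles above the typical gene and the assembly chaperones below it. Of the 43 members 41 were detected, against 42.8% of the 22028 protein-coding genes. At 5 TPM or more the count was 34. With kallisto-format TPM, a second set of deposited estimates, it was 33 at the unchanged cutoff of 1 TPM. That set is on another scale: Psmd2 had 14.6, 22.3 and 4.81 TPM there, against 47.6, 49.2 and 47.4 TPM. After rescaling of both sets to the nuclear-encoded coding genes, 2 detected members differed by more than 1.5 times. These were Psma2 and Psmd14, which were 1.54 and 1.65 times higher in the kallisto-format set. The share of all genes is not given for these settings. The members had a median level of 4.23 ± 0.10 on the log2(TPM + 1) scale (SD, n = 3), against 3.25 ± 0.10 for all detected protein-coding genes. Of the 31 subunits of the core and regulatory particles, 30 lay above the median of detected genes and 28 lay between 10 and 50 TPM. Of the 7 assembly chaperones, 7 were detected and 0 lay above that median. The SD of log2(TPM + 1) between the 3 libraries had a median of 0.13 over all members, against 0.20 over all detected protein-coding genes. These lists were not matched for level: their medians of mean TPM were 17.4 and 8.63.

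**Figure D1:**
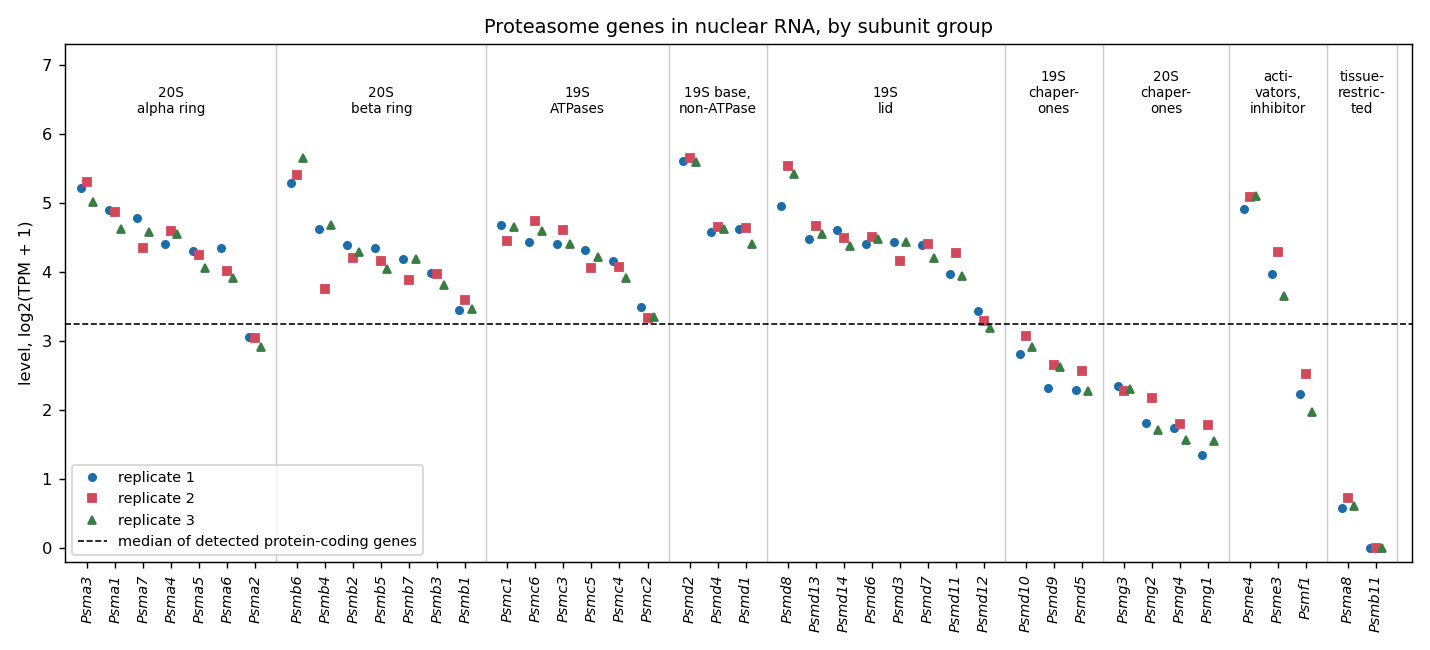
Level of each proteasome gene as log2(TPM + 1), with 1 point per library and genes ordered by mean within each subunit group. The dashed line is the median of detected protein-coding genes at 3.25. By mean, core and regulatory subunits lie above it with the exception of Psma2, and all 7 chaperones lie below it.

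The alpha ring forms the gated ends of the core. Psma3 was the highest alpha subunit, with 36.1, 38.5 and 31.2 TPM in replicates 1, 2 and 3. Psma1 followed with 28.6, 28.2 and 23.7 TPM. Psma2 was the lowest, with 7.29, 7.20 and 6.51 TPM. The libraries of Psma2 did not overlap those of any other alpha subunit, and its mean of 7.0 ± 0.427 TPM (SD, n = 3) was 5.04 times below that of Psma3 (35.2 ± 3.75 TPM). In rescaled kallisto-format TPM the gap was smaller, with Psma2 at 51.7 and Psma3 at 171. The other 4 alpha subunits, Psma7, Psma4, Psma5 and Psma6, had means between 16.2 and 22.8 TPM. Psma7 overlapped with Psma1 and Psma4, and Psma5 overlapped with Psma6, while Psma3 lay above Psma1, and Psma4 above Psma5, in all libraries.

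The beta ring carries the proteolytic sites. Psmb6, the caspase-like subunit, had the highest mean of the core subunits, with 38.0, 41.4 and 49.1 TPM. It exceeded Psma3 within each library, though their ranges overlapped. Psmb4, a beta subunit without a proteolytic site, was the second highest at 20.2 ± 6.74 TPM (SD, n = 3), but its libraries differed by 1.98 times. It had 12.4 TPM in replicate 2, against 23.5 and 24.6 TPM in replicates 1 and 3. Psmb5, the chymotrypsin-like subunit, had 19.3, 16.8 and 15.5 TPM. Psmb7, the trypsin-like subunit, had 17.2, 13.8 and 17.2 TPM. Psmb6 thus lay above the other catalytic subunits in every library, by a mean of 42.8 ± 5.71 TPM against 17.2 ± 1.95 for Psmb5 and 16.1 ± 1.97 for Psmb7, while Psmb5 and Psmb7 overlapped. Psmb1, a structural beta subunit, was the lowest with 9.89, 11.03 and 10.03 TPM, and Psmb2 and Psmb3 had means of 18.6 and 14.2 TPM.

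The ATPases of the regulatory particle form the ring that unfolds the substrate. Psmc1 had 24.5, 20.8 and 24.1 TPM and Psmc6 had 20.6, 25.6 and 23.1 TPM, so the highest members of this ring overlapped. Psmc2 was the lowest, with 10.2, 9.06 and 9.19 TPM, below every library of the other ATPases. Psmc3, Psmc5 and Psmc4 had means between 15.5 and 21.2 TPM.

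Of the base subunits that are not ATPases, Psmd2, a large scaffold that docks ubiquitin-like domains, had the highest mean of the whole set. In kallisto-format TPM, rescaled to the nuclear-encoded coding genes, it came after Psme4, Psmd8, Psmb6, Psma3 and Psmd14, at 163 against 228 for Psme4. In the RSEM-format table it had 47.6, 49.2 and 47.4 TPM, and its libraries differed by only 1.04 times. Psmd4, a ubiquitin receptor, had 23.0, 24.1 and 23.7 TPM. Psmd1, the scaffold that holds the ubiquitin receptor Adrm1, had 23.5, 23.9 and 20.1 TPM. Psmd4 and Psmd1 overlapped with each other and lay below Psmd2 in every library.

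The lid removes ubiquitin chains. Psmd8, a lid subunit that joins late in lid assembly, was the highest with 29.98, 45.1 and 41.6 TPM. Psmd13, a structural lid subunit, had 21.3, 24.2 and 22.5 TPM. Psmd12, another structural subunit, was the lowest with 9.80, 8.78 and 8.09 TPM. Psmd8 lay above and Psmd12 below every library of the other lid subunits. Psmd14, the deubiquitinating enzyme itself, averaged 21.5 ± 1.81 TPM (SD, n = 3) and overlapped with Psmd13. Psmd6, Psmd3, Psmd7 and Psmd11 had means between 15.8 and 20.98 TPM.

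The chaperones that assemble the particles, which are not part of the finished proteasome, were several-fold lower than the subunits. Psmd10 (gankyrin) averaged 6.66 ± 0.718 TPM, Psmd9 averaged 4.80 ± 0.733 TPM and Psmd5 averaged 4.21 ± 0.595 TPM (SD, n = 3 each). These 3 assist the base of the regulatory particle. For the core, Psmg3 averaged 3.96 ± 0.141 TPM and its partner Psmg4 averaged 2.26 ± 0.258 TPM. Psmg2 averaged 2.77 ± 0.663 TPM and its partner Psmg1 averaged 1.97 ± 0.447 TPM. The 20S chaperones had a median of 1.80 ± 0.17 on the log2(TPM + 1) scale (SD, n = 3) and the 19S chaperones 2.53 ± 0.19. The core particle had a median of 4.26 ± 0.09 and the regulatory particle 4.44 ± 0.04, so the list medians lay apart by more than their spread between libraries. Single members did overlap: Psmd10 had 6.03 to 7.44 TPM and the core subunit Psma2 6.51 to 7.29 TPM.

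The alternative caps of the core were unequal. Psme4, a nuclear activator linked to acetylated histones, had 29.0, 33.0 and 33.2 TPM. Psme3, another activator that resides in the nucleus, had 14.7, 18.6 and 11.5 TPM. Psmf1, known as an inhibitor of the core in vitro, had 3.70, 4.73 and 2.92 TPM. The 3 genes did not overlap.

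The core subunits restricted to other tissues were not detected. Psma8, the alpha subunit of the testis proteasome, had 18, 24 and 15 expected counts, or 0.49, 0.66 and 0.52 TPM, low but above 0 in each library. Psmb11, the beta subunit of cortical thymic epithelium, had 0 counts in each library, which allows up to 0.0375, 0.0529 and 0.0423 TPM at 3 counts (counting error only). The kallisto-format estimates assigned 146, 125 and 85.9 counts to Psmb11. The sets thus differ for this gene, and the cause was not tested. Of 4 markers of germ cells and thymic epithelium 0 were detected, with a summed level between 0.40 and 0.56 TPM. In bulk RNA, few cells with a transcript and little transcript per cell cannot be told apart.

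Subunits that are present in equal numbers in each particle were not equal in nuclear RNA. Across the 14 core subunits the SD of mean log2(TPM + 1) was 0.62, and the highest over the lowest mean was 6.12 times (Psmb6 over Psma2). In rescaled kallisto-format TPM the lowest core subunit was Psmb1 at 48.2, with Psma2 at 51.7. Across the 17 regulatory subunits the SD was 0.56 and the ratio 5.41 times (Psmd2 over Psmd12). The CCT chaperonin, another ring complex of 8 subunits, had an SD of 0.28 and a ratio of 1.89 times. Over 80 cytosolic ribosomal protein genes, of which 77 were detected, the SD was 1.27, and over all detected protein-coding genes it was 1.48. The ribosomal list thus holds undetected genes, such as Rpl10l at 0.0 TPM, which the core and regulatory lists do not. Over all 43 members, of which 41 were detected, the SD was also 1.27. Within each library the median of the regulatory particle exceeded that of the core particle, by 0.07, 0.31 and 0.16 on the log2 scale (0.18 ± 0.12, SD, n = 3). With protein-coding isoforms alone, an alternative chosen after seeing the data, this difference was 0.13 ± 0.15, less than its own SD.

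GENCODE assigns each transcript a class, and part of the levels above lay in isoforms outside its protein-coding class. That class also holds short transcripts: Psmd2-207 has 659 bases and 9.03 TPM, against 2961 bases and 33.5 TPM for Psmd2-201. Levels of coding isoforms are therefore sums over the class, not over full-length transcripts. A retained-intron isoform keeps intron sequence of a coding one. Over the 27 members with such an isoform, its share of the gene's transcript TPM had a median of 23.0% ± 1.35 (SD, n = 3), against 24.0% ± 0.441 over 5980 detected protein-coding genes, a share near that of all such genes. With expected counts the members' median was the higher, at 16.7% ± 0.833 against 13.5% ± 0.119. The 8 core subunits with such an isoform had a median share of 30.6% ± 1.88 and the 13 regulatory subunits 16.7% ± 1.70, against 32.5% for the CCT chaperonin and 14.2% for ribosomal proteins. The share exceeded 50% on average in 3 of the 27 members (11.1%), Psma3, Psmd6 and Psmf1, against 766 of the 5980 genes (12.8%), so such shares are not particular to the members. A share is an estimate of how reads common to several isoforms divide, and unspliced RNA and a stable isoform with a kept intron cannot be told apart in these tables.

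Psma3 was the extreme. Its retained-intron isoforms held 64.2%, 49.6% and 68.4% of its TPM in replicates 1, 2 and 3, and isoforms annotated for nonsense-mediated decay held a further 17.1% ± 7.14 (SD, n = 3). It was the 1 member of 41 whose highest isoform was a retained-intron one, Psma3-203, at 18.2, 13.2 and 17.1 TPM. Its protein-coding isoforms summed to 8.68, 9.71 and 5.40 TPM. Counted on coding isoforms, Psma3 averaged 7.93 ± 2.25 TPM. Among the core subunits only Psmb1 (7.88 ± 0.335 TPM) and Psma2 (7.0 ± 0.427 TPM) had lower means. Psma3 overlapped with both, and in replicate 3 its 5.40 TPM lay below their 7.89 and 6.51 TPM. Psma3 was therefore the highest alpha subunit by gene and among the lowest by coding isoform.

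The sequences at the kept introns show where the isoforms part. Each line gives 60 bases of a GENCODE M21 transcript, 5′ to 3′, with exon bases in lower case and kept intron bases in capitals. Every kept stretch opens with GT, the usual first bases of an intron. In Psma3-203 the whole intron 3 of 9 of the coding isoform Psma3-204 is kept (77 bases, chr12:70984595-70984671, plus strand, mm10), and its last bases are AG.
Psma3-203: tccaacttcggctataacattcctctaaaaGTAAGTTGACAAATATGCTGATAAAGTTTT
Psma3-204: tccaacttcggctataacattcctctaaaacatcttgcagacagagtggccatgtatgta
In Psmb6-203 the whole intron 2 of 5 is kept (341 bases, chr11:70525953-70526293, plus strand).
Psmb6-203: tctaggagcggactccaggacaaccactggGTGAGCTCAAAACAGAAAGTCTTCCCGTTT
Psmb6-201: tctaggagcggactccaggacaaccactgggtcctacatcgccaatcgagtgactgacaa
In Psmd6-203 the exon runs 354 bases into intron 2 of 7 (the intron has 3016 bases, chr14:14116971-14119986, minus strand).
Psmd6-203: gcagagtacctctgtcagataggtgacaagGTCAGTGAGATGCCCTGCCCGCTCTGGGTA
Psmd6-201: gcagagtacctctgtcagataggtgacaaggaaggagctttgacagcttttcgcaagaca
Psmd6, a lid subunit, had 51.7%, 51.3% and 53.7% of its TPM in retained-intron isoforms, the tightest of the 3 high shares. Its coding isoforms averaged 10.02 ± 0.459 TPM, against 20.98 ± 0.804 TPM for the whole gene (SD, n = 3). Psmd6-203 itself had 3.60, 4.03 and 2.50 TPM. Its mean of 3.38 TPM was below those of the retained-intron isoforms Psmd6-202 (3.69 TPM) and Psmd6-205 (3.45 TPM). Psmf1 had 51.1%, 62.4% and 41.6% in such isoforms, a spread that overlaps 50%.

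In Psmb6 the retained-intron isoforms held 36.2%, 44.1% and 41.1%. Psmb6-203, printed above, had 3.04, 4.27 and 6.20 TPM. It was not the highest of them: Psmb6-202 had 7.84, 8.87 and 10.35 TPM. Psmb6 stayed the highest core subunit on coding isoforms, with 24.2, 23.1 and 28.9 TPM. Psmc6, an ATPase, had a coding share of 43.2% ± 4.42 (SD, n = 3), the remainder lying in retained-intron isoforms (37.7% ± 3.74) and other classes. Psmd2 kept 88.5% ± 0.704 in coding isoforms and stayed the highest regulatory subunit at 42.6 ± 0.918 TPM. Over all 41 detected members the coding share had a median of 80.6% ± 2.75, against 78.3% ± 0.342 for detected protein-coding genes. On coding isoforms the core subunits spanned 3.63 times (Psmb6 over Psma2) and the regulatory subunits 5.09 times (Psmd2 over Psmc2).

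**Figure D2:**
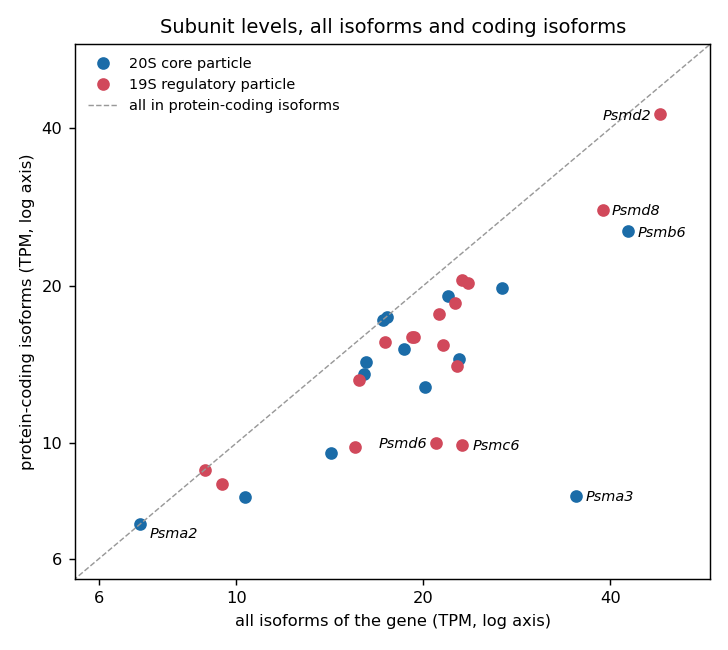
Mean TPM of all isoforms (horizontal, log axis) against mean TPM of protein-coding isoforms (vertical, log axis) for the core and regulatory subunits, 1 point per gene. Genes on the dashed line have only coding isoforms. Psma3 lies farthest below it, at 35.2 TPM in all isoforms and 7.93 TPM in coding ones.

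**Figure D3:**
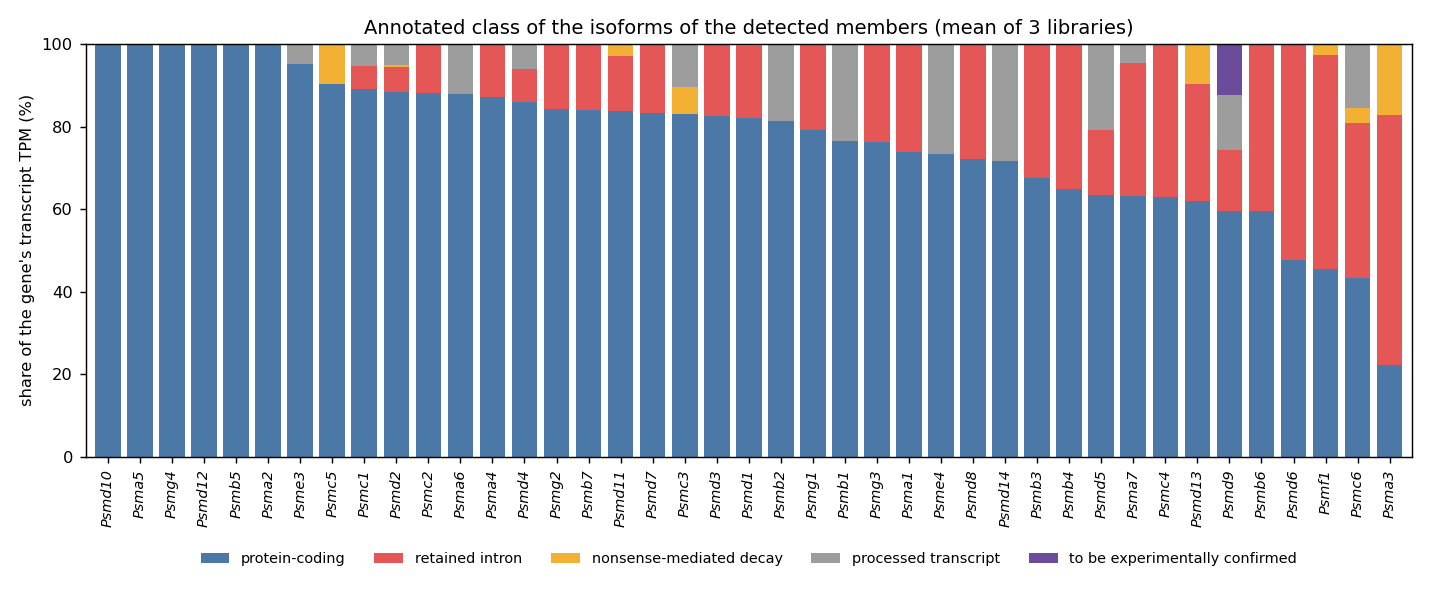
Share of each detected member's transcript TPM by GENCODE class, as the mean of 3 libraries, ordered by the coding share. The coding share runs from 100% for genes with no other class to 22.2% for Psma3, and most of the remainder is in retained-intron isoforms.

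The constitutive catalytic subunits can be set beside their immunoproteasome counterparts within each library. Ratios here are the immunoproteasome subunit over the constitutive one. Psmb5 had 19.3, 16.8 and 15.5 TPM, and Psmb8 had 56.8, 35.2 and 56.8 TPM. The ratio was 1.45 ± 0.39 on the log2 scale (SD, n = 3), with Psmb8 higher in 3 of 3 libraries. Psmb7 had 17.2, 13.8 and 17.2 TPM, and Psmb10 had 83.4, 56.4 and 106.8 TPM. That ratio was 2.25 ± 0.31, with Psmb10 higher in 3 of 3 libraries. Psmb6 was the exception. It had 38.0, 41.4 and 49.1 TPM, and Psmb9 had 29.8, 32.9 and 41.4 TPM, a ratio of -0.30 ± 0.05 with Psmb9 lower in 3 of 3. In the exact two-sided sign-flip permutation test each of the 3 ratios had p = 0.25, the smallest that 3 libraries allow, and 0.25 after Benjamini-Hochberg adjustment over the 3.

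The choice of isoforms changed this comparison. Coding isoforms held 100% of Psmb5 and 19.1% ± 9.58 of Psmb8 (SD, n = 3). They held 59.6% ± 4.01 of Psmb6 and 47.7% ± 4.07 of Psmb9. They held 83.9% ± 5.32 of Psmb7 and 23.3% ± 3.46 of Psmb10. The largest share of Psmb8 was the retained-intron isoform Psmb8-205, at 34.4, 18.9 and 39.0 TPM. The largest of Psmb10 was Psmb10-203, a processed transcript of 426 bases, at 50.5, 32.0 and 60.2 TPM. On coding isoforms alone, chosen after seeing the data, Psmb5 had 19.3, 16.8 and 15.5 TPM, and Psmb8 had 10.2, 10.3 and 5.82 TPM. The ratio then reversed to -0.93 ± 0.32. Psmb6 had 24.2, 23.1 and 28.9 TPM, and Psmb9 had 13.6, 14.8 and 21.7 TPM, a ratio of -0.60 ± 0.20. Psmb7 had 14.6, 10.8 and 15.2 TPM, and Psmb10 had 18.8, 15.3 and 21.7 TPM, a ratio of 0.43 ± 0.08. Only the Psmb10 and Psmb7 pair kept the immunoproteasome subunit on top on both counts.

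**Figure D4:**
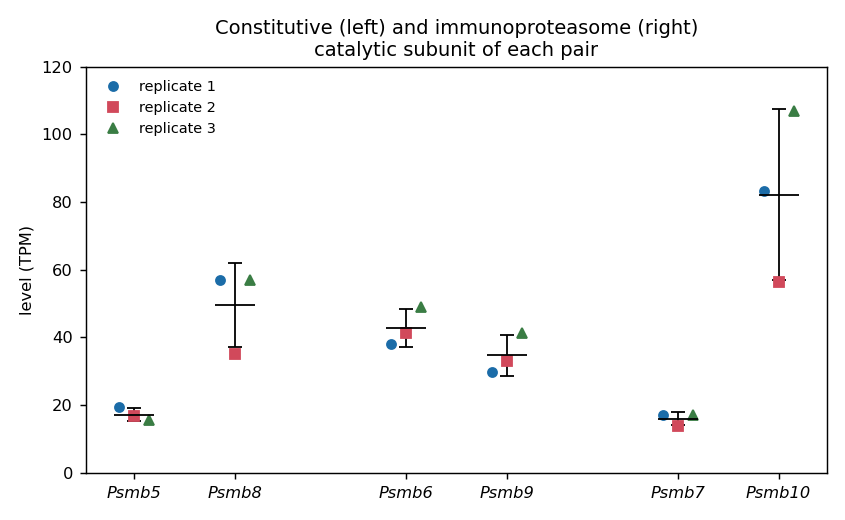
Gene TPM of the constitutive catalytic subunit (left of each pair) and of its immunoproteasome counterpart (right), with 1 point per library and the mean ± SD in black. Psmb8 and Psmb10 lie above Psmb5 and Psmb7 in every library, and Psmb9 lies below Psmb6 in every library.

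The other genes of the pathway were detected throughout. Of the immunoproteasome and its activator, 5 of 5 were detected, and beside the catalytic subunits Psme1 averaged 60.7 ± 11.2 TPM and Psme2 averaged 105 ± 19.2 TPM (SD, n = 3 each). Psme2 has a near-identical copy, Psme2b, at 51.5 ± 12.3 TPM, so the split between them is uncertain. Of 4 further subunits and assembly factors, 4 were detected. Ecpas, which tethers core and regulatory particle, had 35.0 ± 2.39 TPM. Adrm1, a ubiquitin receptor, had 19.9 ± 2.05 TPM, and Sem1, a small lid subunit, had 18.1 ± 2.29 TPM. Pomp, which matures the core, had 23.8, 14.2 and 18.7 TPM, a level like the subunits and above all 7 chaperones among the members.

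Of 5 expression control genes 5 were detected. Nfe2l1, the transcription factor known to raise proteasome subunit genes when the proteasome is impaired, had the highest mean of them. It had 67.5, 83.8 and 108 TPM, above every member, though Vcp exceeded it in replicate 1 at 69.1 TPM. Ddi2, the protease that releases Nfe2l1, had the lowest mean of the 5 at 9.19 ± 1.77 TPM (SD, n = 3). In replicate 1 Ngly1 was lower, at 8.08 against 8.16 TPM for Ddi2. Of 9 bound enzymes and shuttles 9 were detected, led by Zfand5 (28.2 ± 4.59 TPM), which activates the proteasome, down to the shuttle Ubqln2 (2.80 ± 0.780 TPM). Uba6, an enzyme that activates ubiquitin, had 3.48 ± 0.827 TPM.

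The core of the antioxidant response element, which NFE2L1 and NFE2L2 bind, was searched in promoters of RefSeq (GRCm38.p6, 250 bases before to 50 after the start). The motif was TGACNNNGC on both strands, and no other motif was searched. Of the 35 members with a promoter, 6 held it (17.1%), against 14.0% of all 27025 genes and 17.2% of 7568 detected protein-coding genes, so the members matched the background. The sites of the catalytic subunits are printed because these genes carry the comparison above. The motif is in capitals, on the sense strand in both, at chr14:54618024-54618052 (minus strand) and chr11:70525338-70525366 (plus strand).
Psmb5: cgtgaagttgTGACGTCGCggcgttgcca
Psmb6: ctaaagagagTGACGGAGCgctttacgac
The other members with a match were Psmc6, Psmd12, Psmd9 and Psme4. A match describes letters and is no evidence of binding.

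No member passed correction in the main tests between libraries. Counts were tested over 14350 genes, among them 42 members, with edgeR's quasi-likelihood method and Benjamini-Hochberg adjustment at 0.05. For excess spread among all 3 libraries, 0 genes passed (0%) and 690 had an unadjusted p under 0.05 (4.81%), among them 1 member, Psmb4. In the test of a library against the other libraries, 49 genes passed in replicate 1 (0.341%), 0 in replicate 2 (0%) and 1 in replicate 3 (0.00697%). Each such test sets 1 library against 2, so its spread comes from those 2 and from information shared across genes, and it cannot show a difference between cultures. The members numbered 0 in each, and DESeq2, which called 76 (0.53%), 18 (0.125%) and 33 (0.23%) genes, called 0 members too. At an unadjusted p under 0.05, replicate 1 had 0 members, replicate 2 had 3 and replicate 3 had 0, against 6.21%, 6.18% and 3.62% of all genes. The 3 were Psmb4, Psmd3 and Psma7, each lower in replicate 2.

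Psmb4 was the member with the largest such difference. It was lower in replicate 2 by a log2 fold change of -0.99 ± 0.23 (SE), with an edgeR adjusted p of 0.766 and a DESeq2 adjusted p of 0.70. Without the filter on low counts the estimate was -1.01. The calls made without that filter, over all genes and over members, are given together in the last paragraph. A call that sets 1 library against 2 cannot show a difference between cultures. Its coding isoforms had 8.82 TPM in replicate 2, against 15.5 and 14.1 TPM in replicates 1 and 3, so the low value was not limited to the retained-intron isoforms.

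The core and regulatory subunits leaned lower in replicate 2 and higher in replicate 1 on the edgeR estimates, without passing a test. On the edgeR estimates, 13 of 14 core subunits and 15 of 17 regulatory subunits were lower in replicate 2, with medians of -0.31 and -0.22 on the log2 scale, against 50.9% of all genes and a median of -0.01. Of the 7 chaperones 3 were lower, and of the 5 genes of the immunoproteasome and its activator 5 were lower, with a median of -0.70. On TPM rescaled to the nuclear-encoded coding genes, 12 of 14 core and 11 of 17 regulatory subunits lay below their own mean in replicate 2, against 40.5% of detected protein-coding genes. By deposited TPM, 7 of 14 core and 6 of 17 regulatory subunits did, against 27.1% of those genes. The lean thus depends on the scale, and by deposited TPM neither list had most of its subunits below their mean. On each scale the share that was lower was larger for the core and for the regulatory subunits than for all genes. In replicate 1 the lean was the reverse. On the edgeR estimates 2 of 14 core and 4 of 17 regulatory subunits were lower, against 51.7% of all genes. Their medians were 0.21 and 0.15. By deposited TPM 3 of 14 and 8 of 17 lay below their own mean there, against 63.2% of detected protein-coding genes. The values of a library are relative to the others, so the leans are not separate results. Replicate 2 had the lower RNA input and the fewest counts, and their part in the leans was not tested.

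**Figure D5:**
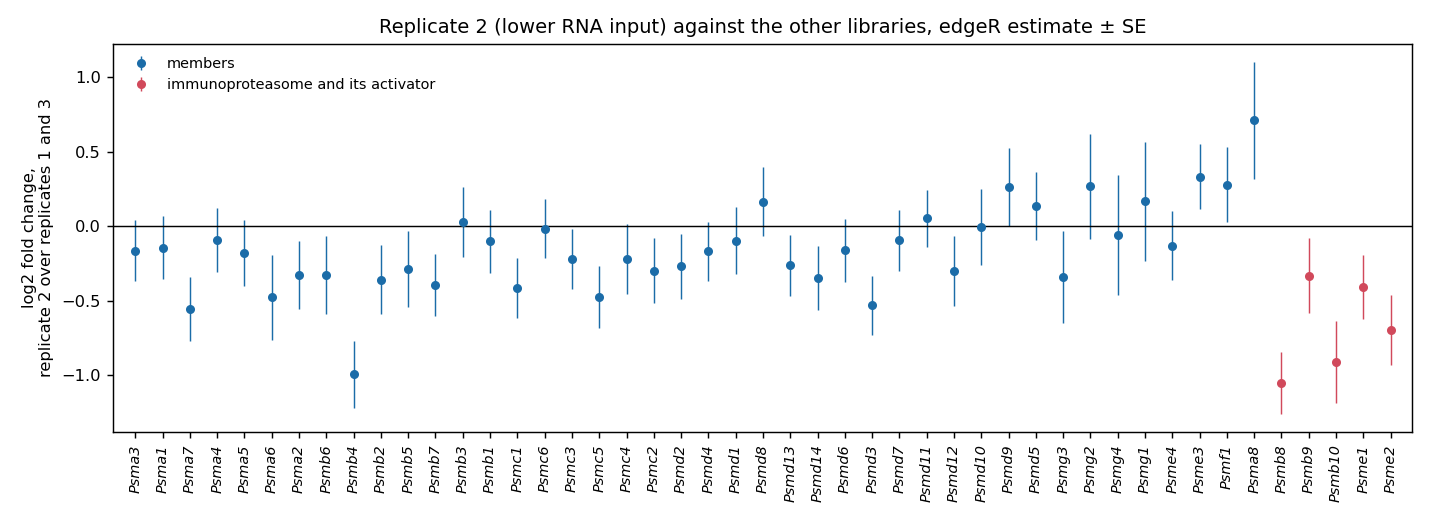
Log2 fold change of replicate 2 over replicates 1 and 3 as estimated by edgeR, with bars of 1 SE, for the 42 members with counts and the 5 genes of the immunoproteasome and its activator. Most core and regulatory subunits lie below 0, Psmb4 lies lowest among the members at -0.99, and Psma8 has the highest estimate, from 18, 24 and 15 counts in replicates 1, 2 and 3.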

How the data were processed

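Total RNA-seq of nucleoplasmic RNA was deposited as tables per library. They rest on GENCODE M21 and mm10, per the file headers and notes. The gene and transcript tables have RSEM's columns and a further transcript table has kallisto's, and no tool version is given in the sources used here. The authors' expected counts are estimates per gene with no normalization. The deposited TPM values were scaled by the authors to 1000000 per library, and the deposited FPKM values are per length and depth. Kallisto-format TPM was summed per gene.

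Levels were summarised as log2(TPM + 1). Detection required 1 TPM or more in every library. Nuclear-encoded protein-coding genes held between 199348 and 221692 TPM, since short RNAs take much of the total, and TPM rescaled over these genes served as an alternative. Rounded expected counts were filtered with filterByExpr, scaled by TMM and fitted with edgeR 4.0.16 in R 4.3.3, with DESeq2 1.42.0 as an alternative. Tests of single libraries used robust hyperparameters, chosen after their counts of calls had been seen, and the spread test used ordinary ones. The SE of a fold change was derived from its F statistic. Both tests were run on simulated counts. Tables were handled in Python 3.11.15 (pandas 2.3.3 and numpy 2.4.6), and plots were drawn with matplotlib 3.10.9. Of the members, 32 had whole counts in every library and 11 had part counts, which mark reads shared between genes.

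Named members are the highest, second highest and lowest of each subunit group by mean TPM and every member of groups of up to 4. The catalytic subunits and the genes with a retained-intron share over 50% were added after their values were seen, as were Psmc6, Psmd14 and the members named from the count tests. The members and all lists were chosen with earlier results of these data known. A gene taken by the list rule is not reported here. Protein sequences were not used here.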

Additional observations from a re-analysis of the deposited data

How the results depend on the processing

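The members' median level (4.23 ± 0.10, SD, n = 3) was 2.70 ± 0.93 with kallisto-format TPM, 6.42 ± 0.18 after rescaling and 4.73 ± 0.19 with FPKM. In kallisto-format TPM, replicate 3 was the lowest library for each member. The distance of the median above detected genes (0.98) was 0.59 with kallisto-format TPM. Averaged over libraries, the core SD was 0.64 (0.52 with kallisto-format TPM, 0.68 with pseudocount 0.1, 0.54 on coding isoforms). The core ratio of highest to lowest was 6.16 (3.91 with kallisto-format TPM, 3.96 on coding isoforms), and the regulatory ratio 5.44 (4.69 with kallisto-format TPM). The retained-intron share (23.0%) was 29.9% with kallisto-format TPM (28.4% for all such genes) and 16.7% with expected counts (13.5%). The ratio of Psmb9 over Psmb6 reversed to 0.93 with expected counts, which are not per length, and that of Psmb8 over Psmb5 to -0.93 on coding isoforms. The causes were not tested.

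Genes called for replicates 1, 2 and 3 numbered 76, 18 and 33 with DESeq2 and 0, 349 and 108 without the filter on low counts, where 1 member, Psmb4, was called in replicate 2. Replicate 1 had 12 with DESeq2 size factors and 29 without robust hyperparameters. The spread test called 109 genes without the filter and 0 to 24 with a replicate left out, 24 without replicate 1, and 0 members in each case. Without the filter 24311 genes were tested, against 14350 in the main tests. Members detected numbered 34 at 5 TPM and 41 with any replicate left out. At the unchanged cutoff of 1 they numbered 33 with kallisto-format TPM and 42 after rescaling, which raised the mean of Psma8 from 0.557 to 2.65. Shares of all genes are not given for these settings. With a replicate left out, the median level was 4.17 to 4.26, its distance above detected genes 0.90 to 1.07, the regulatory minus core difference 0.12 to 0.24, the retained-intron share 22.6% to 23.7%, the core SD 0.63 to 0.66 and ratio 5.48 to 6.64, and the regulatory SD 0.55 to 0.60 and ratio 5.24 to 5.73. The ratios of the catalytic pairs were 1.27 to 1.66 for Psmb8, -0.33 to -0.28 for Psmb9 and 2.08 to 2.39 for Psmb10. No paired analysis was possible because the libraries form a single group. Among members with counts, depth limits Psma8 (15 to 24) and Psmg4 (20 to 26) most.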
